A study of Mus musculus with 6 samples.

Results

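Transcript levels of 10 genes of the circadian clock and its output were described in mouse liver, namely Arntl (also called Bmal1), Npas2, Clock, Per1, Per2, Cry1, Nr1d1, Nr1d2, Dbp and Tef. They were chosen by name and are 10 of the 18194 genes that the array reports through a probe set with a single gene symbol. For each gene the probe set with the highest mean signal over the 6 arrays was used, and its other probe sets served as a check. Signals are MAS5 values in arbitrary units, and signals below 221.4, the 50th percentile over all arrays and probe sets and called the floor here, were given no order. Of the 10 genes, 8 exceeded the floor on at least 1 array and 7 on all 6 arrays, while Npas2 and Cry1 lay below it on all 6.

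Liver RNA came from male mice of the inbred C57BL6/J strain that were 6 to 8 weeks old at the start, and each of the 6 groups was 1 Affymetrix array of RNA pooled from 3 to 4 livers. In a 2-month study the groups received chow, a fast-food diet (21% fat, 34% sucrose by weight and 0.2% cholesterol, with glucose and fructose in the drinking water), or that diet with canertinib mixed in at an estimated 80 mg/kg per day. Canertinib is an irreversible kinase inhibitor of EGFR and related ERBB receptors. In a 5-month study the groups were chow, the diet with injections of the PBS vehicle, and the diet with canertinib injected into the peritoneum at 80 mg/kg, the injections being given on 5 days per week over the last 5 weeks, and no injection is named for chow. Route and duration of the drug and length of the study therefore changed together between the 2 times. Chow of the 5-month study differed from its other groups both in diet and in injection, which cannot be told apart there. The labels give no time of day at which the livers were taken, so a different level and a different phase of the daily rhythm cannot be told apart, nor can fewer cells of a type and less RNA per cell. With 1 array per group there is no replicate error within a study, so the precision of each value given here is limited by that number.

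The clock is a transcriptional feedback loop found in most cells and strong in liver. ARNTL pairs with CLOCK or its relative NPAS2, binds E-boxes and drives the Per, Cry and Nr1d genes and Dbp, and the PER and CRY proteins then inhibit that pair. The nuclear receptors NR1D1 and NR1D2 (REV-ERB alpha and beta) repress Arntl through ROR elements, and DBP and TEF carry the rhythm to output genes through D-boxes, the same elements that the repressor NFIL3 binds. In liver these factors time parts of lipid, bile acid and glucose metabolism to the daily cycle of feeding.

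These elements were searched in RefSeq promoter windows of mouse build GRCm38.p6, which span 250 bases before to 50 bases after a transcript start, on both strands and by exact letters. Of the 10 genes, 9 had at least 1 window, 14 in all, and Per2 had none. The canonical E-box CACGTG stood in 4 of the 14 windows and in 7.15% of all 32851 windows, and its variant CACGTT in 2 and in 4.68%. The D-box TTATGNAA stood in 1 window and in 3.38% of all, and the ROR element TAGGTCA in 1 and in 2.61%. The stretches below are shown because Per1, Nr1d1 and Dbp carry the differences described next and because the short ones hold the other matches, with each match in capitals. The Per1 stretch (chr11:69098699-69098948, plus strand, the 250 bases before a start) holds an E-box and a D-box.
Per1: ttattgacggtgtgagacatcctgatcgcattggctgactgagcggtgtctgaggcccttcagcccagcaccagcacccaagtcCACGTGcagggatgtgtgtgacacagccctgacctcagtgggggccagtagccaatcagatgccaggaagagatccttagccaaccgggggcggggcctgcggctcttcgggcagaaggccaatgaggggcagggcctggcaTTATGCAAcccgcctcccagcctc
The Nr1d1 stretch (chr11:98775378-98775627, minus strand, the 250 bases before the start) holds the E-box variant on its opposite strand.
Nr1d1: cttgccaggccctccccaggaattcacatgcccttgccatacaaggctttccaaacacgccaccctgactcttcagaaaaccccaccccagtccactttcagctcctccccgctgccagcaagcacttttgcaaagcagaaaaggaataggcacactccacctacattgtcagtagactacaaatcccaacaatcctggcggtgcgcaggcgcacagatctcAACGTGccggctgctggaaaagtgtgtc
The Dbp stretch (chr7:45704997-45705099, plus strand) is the part of its window that lies before the annotated gene, and none of the 4 motifs occurs in the whole window, which says only that these letters are not in it.
Dbp: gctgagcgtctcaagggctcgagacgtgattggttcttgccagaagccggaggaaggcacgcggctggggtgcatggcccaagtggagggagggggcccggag
Both Tef windows hold an E-box (chr15:81802526-81802571 and chr15:81811256-81811301, plus strand).
Tef, window 1: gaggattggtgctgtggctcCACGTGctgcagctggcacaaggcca
Tef, window 2: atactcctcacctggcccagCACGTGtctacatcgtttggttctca
Cry1 (chr10:85185089-85185134, minus strand) holds an E-box and, close to it, the variant.
Cry1: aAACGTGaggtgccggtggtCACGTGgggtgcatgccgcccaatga
Arntl (chr7:113207530-113207558, plus strand) holds the ROR element after the start, in the letters that NR1D1 and the ROR activators are known to compete for.
Arntl: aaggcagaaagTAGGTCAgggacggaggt
A match of letters is a description and shows no binding in these livers.

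Across the 6 liver pools, the output factor gene Dbp and the repressor gene Nr1d1 had their highest signals with chow and their lowest with canertinib in each study, whereas Per1 was highest with canertinib in each study. The signals of Arntl and Tef differed by at most 1.47-fold and 1.37-fold between any 2 arrays. With the diet and no drug, 0 of the 8 measured genes were at least 2-fold different from chow at either time. At 5 months this comparison also holds the vehicle injections, which are named for diet and not for chow. The shares of all 13989 measured genes past that size were 1.98% higher and 1.55% lower at 2 months, and 2.72% higher and 1.83% lower at 5 months. With the drug on the diet, 1 of 8 was at least 2-fold higher at 2 months (Per1, against 3.55% of all genes) and 2 of 8 were at least 2-fold lower (Nr1d1 and Dbp, against 3.26%). At 5 months 0 of 8 passed that size in either direction, against 2.19% and 2.73% of all genes. Set against chow, the drug with the diet had 0 of 8 at least 2-fold higher at 2 months and 2 lower (Nr1d1 and Dbp), against 3.8% and 2.74% of all genes. At 5 months 2 of 8 were higher (Per1 and Per2) and 2 lower (Nr1d1 and Dbp), against 2.82% and 2.72%. Between the chow arrays, which differ in neither diet nor drug, 0 of 8 were at least 2-fold higher at 5 months and 1 was lower (Per2), against 1.28% and 1.32%.

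**Figure D1:**
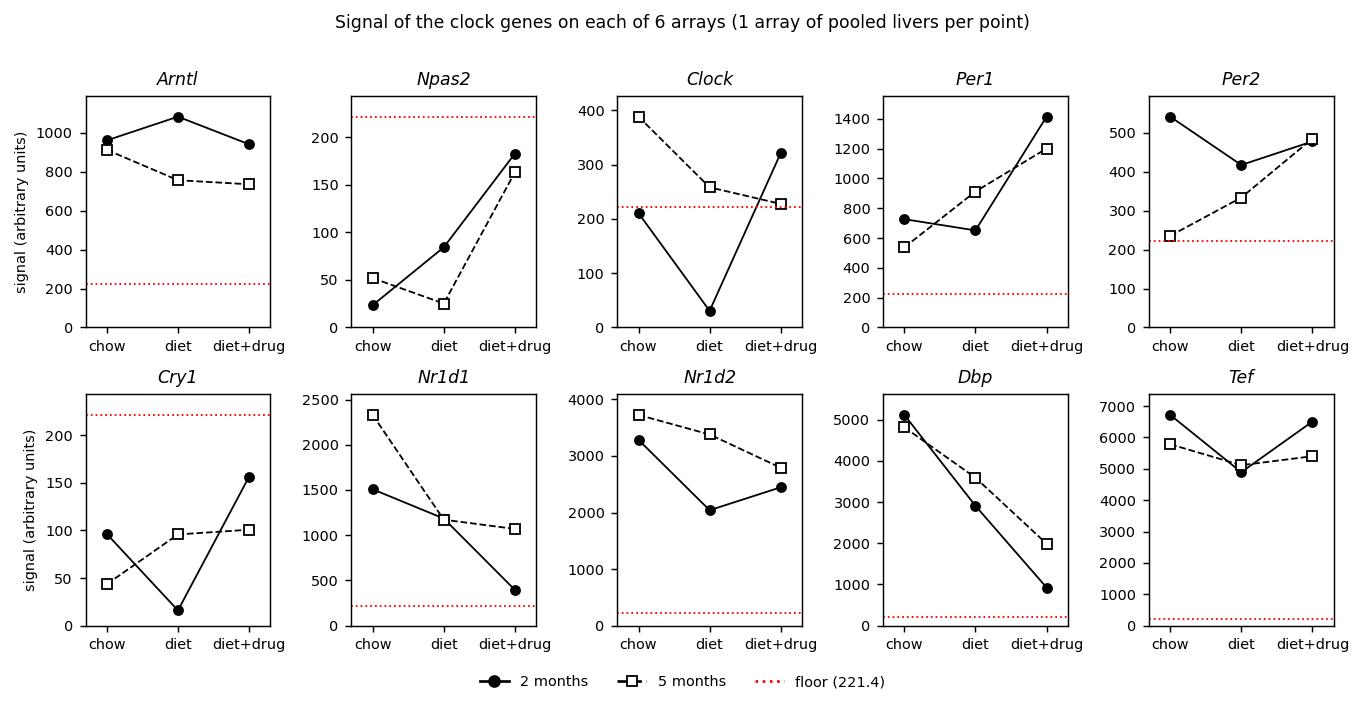
MAS5 signal in arbitrary units (y axis, from 0) of the 10 clock genes with chow, diet and diet with drug (x axis), where each point is 1 array of pooled liver RNA, filled circles are 2 months, open squares 5 months and the dotted line is the floor of 221.4. Dbp steps down from chow (5117 and 4816) to diet (2909 and 3592) to drug (926.3 and 1990), and Npas2 and Cry1 stay below the floor.

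Among the activators, Arntl had signals of 960.9 with chow, 1083 with diet and 940.7 with the drug at 2 months, and 912.1, 756.3 and 735.3 at 5 months. The 3 arrays of the 5-month study were thus the lowest of the 6, and the groups of each study lay close together. Its log2 difference between drug and diet was -0.20 at 2 months and -0.04 at 5 months. The other Arntl probe set gave a different picture, with 602.4 on the 5-month drug array and 242.4 or less on the other arrays, 4 of them below the floor. On that probe set the 5-month drug array lay at least 1.44 above the diet array on the log2 scale, so the level of Arntl with the drug at 5 months depends on which probe set is read.

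Clock, the usual partner of ARNTL, was dim on all 4 of its probe sets. The probe set used gave 210.6, 30.6 and 321.3 with chow, diet and drug at 2 months and 388.4, 258.2 and 227.7 at 5 months, with the chow and diet arrays of the 2-month study below the floor. Its log2 differences at 5 months were -0.59 for diet against chow and -0.18 for drug against diet, and at 2 months the drug array was at least 1.45-fold above the diet array. The other 3 probe sets of Clock ranged from 102.7 to 265.5 and were above the floor on 2, 1 and 0 arrays. Npas2, which can replace CLOCK, read 23.4 to 182.6 on the probe set used and 27.1 to 49.0 on the other. All of these signals lay below the floor, so no order and no fold is given.

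Among the repressors that act on the ARNTL complex, Per1 had signals of 726.5 with chow, 650.9 with diet and 1414 with the drug at 2 months. At 5 months these were 537.2, 911.8 and 1200. The drug arrays were therefore the highest 2 of the 6, and no array of another group reached them. Drug exceeded diet by a log2 difference of 1.12 at 2 months, a rank of 349 among 13989 genes ordered from the highest difference, and by 0.40 at 5 months, a rank of 2195. Diet differed from chow by -0.16 and 0.76, so most of the 5-month distance between chow and drug (1.16) was already present with diet and vehicle injections. Per1 is also known as a gene that glucocorticoids and other acute signals induce directly.

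Per2 had signals of 541.4, 417.3 and 477.8 in the 2-month study and 235.2, 333.6 and 484.9 in the 5-month study with chow, diet and drug. The chow arrays, at -1.20 on the log2 scale, lay further apart than any groups within a study. With the drug against chow its log2 difference was -0.18 at 2 months and 1.04 at 5 months. A second Per2 probe set placed diet above chow at both times (0.42 and 0.67) and the drug below diet (-0.08 and -0.79), whereas the probe set used gave -0.38 and 0.50, then 0.20 and 0.54. For drug against chow that second probe set gave 0.35 and -0.11, opposite in sign to the probe set used at both times. The chow pair differed by 0.01 on it, so the distance between the chow arrays was not shared by the Per2 probe sets. The third probe set of Per2 was below the floor on all arrays. Cry1, whose protein is the strongest repressor of the ARNTL complex, read 16.0 to 156.4 on its only probe set, below the floor throughout.

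**Figure D2:**
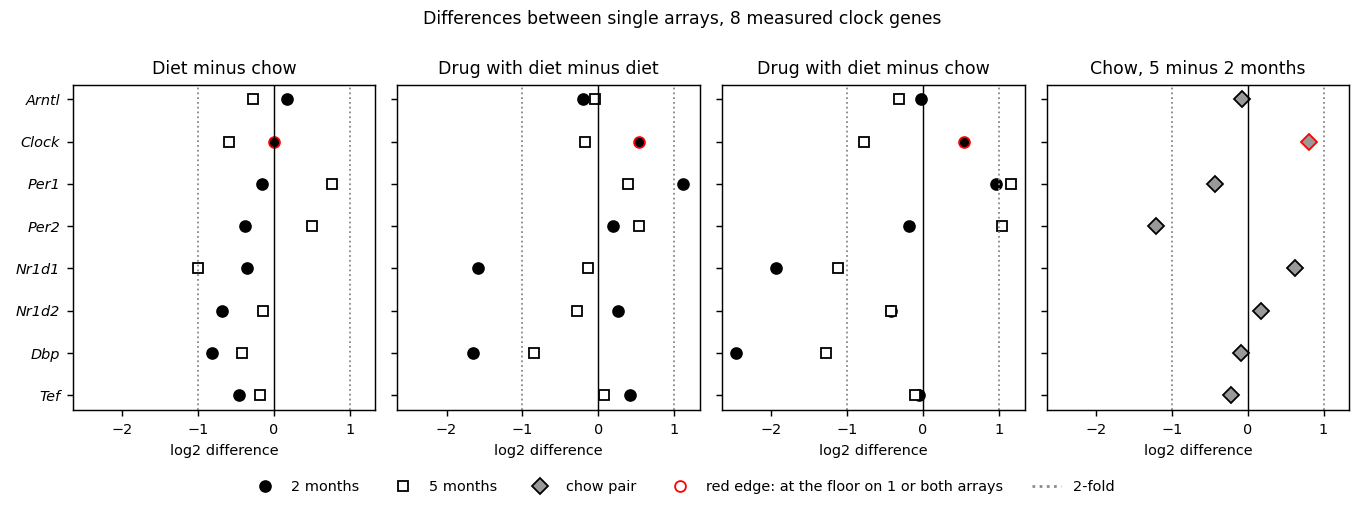
Log2 differences between single arrays (x axis) of the 8 clock genes above the floor on at least 1 array, for diet, drug with diet, and drug with diet against chow, and for the chow pair, with dotted lines at 2-fold and red edges where a signal was at the floor. Dbp and Nr1d1 lie left of 0 in all 6 treatment comparisons, and Per1 lies right of 0 in 5 of them. Within a study the difference of drug with diet against chow is the sum of its diet and drug differences, so the 6 are not independent.

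Of the nuclear receptors that repress Arntl, Nr1d1 had signals of 1508 with chow, 1184 with diet and 395.7 with the drug at 2 months, and 2330, 1172 and 1070 at 5 months. The order was the same in each study, but the place of the larger step differed. At 2 months the larger step lay between diet and drug, with a log2 difference of -1.58 (2.99-fold lower) against -0.35 between chow and diet. At 5 months the larger step lay between chow and diet, with -0.99 (1.99-fold lower) against -0.13 between diet and drug. Against chow the drug-treated liver had 3.81-fold and 2.18-fold less Nr1d1 signal, while the chow arrays differed by 0.63, higher at 5 months. The array holds 1 probe set for Nr1d1, so no second reading is available.

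Nr1d2 varied less than Nr1d1. Its signals were 3285, 2041 and 2446 at 2 months and 3726, 3380 and 2792 at 5 months with chow, diet and drug. Chow was highest in each study, and against chow the drug arrays were lower by similar amounts, -0.43 and -0.42. The diet arrays gave -0.69 and -0.14 against chow, and the drug gave 0.26 and -0.28 against diet. On its second probe set the corresponding values were -0.34 and -0.28 for the diet and 0.01 and -0.45 for the drug.

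Of the output factors, Dbp, a PAR bZIP activator with one of the widest daily swings of liver transcripts, had signals of 5117 with chow, 2909 with diet and 926.3 with the drug at 2 months. At 5 months the values were 4816, 3592 and 1990. The chow arrays differed by 1.06-fold, every diet array lay below every chow array, and every drug array lay below every diet array. Drug against diet gave log2 differences of -1.65 (3.14-fold lower) and -0.85 (1.81-fold lower), ranks of 108 and 568 among 13989 genes ordered from the lowest difference. Diet against chow gave -0.81 and -0.42, ranks of 453 and 1953, and drug with diet against chow gave -2.47 and -1.27. The diet array of each study enters both the diet and the drug comparison, so these are not independent readings of Dbp.

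The second Dbp probe set read 1771, 824.8 and 811.0 at 2 months and 1725, 1577 and 1001 at 5 months with chow, diet and drug. It also placed chow highest and drug lowest in each study. The sizes differed from those of the probe set used, with -1.10 for the diet and -0.02 for the drug at 2 months, and -0.13 and -0.66 at 5 months. The 2-month difference between drug and diet on Dbp thus rests on the probe set with the higher signal, while the difference of drug against chow was below 0 on both (-1.13 and -0.79 on the second). Tef, whose product binds the same D-boxes as DBP, read 6720, 4892 and 6508 in the 2-month study and 5784, 5116 and 5402 in the 5-month study. On the probe set used the diet array was lowest in each study, with log2 differences from chow of -0.46 and -0.18, and the drug arrays lay within 0.10 of chow on the log2 scale (-0.05 and -0.10). The other Tef probe sets were each above the floor on 2 arrays. That ending in _s_at read 398.8 with the 5-month diet, against 84.5 with chow and 86.0 with the drug. With the mean over probe sets the 5-month difference of Tef between diet and chow was 0.22.

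**Figure D3:**
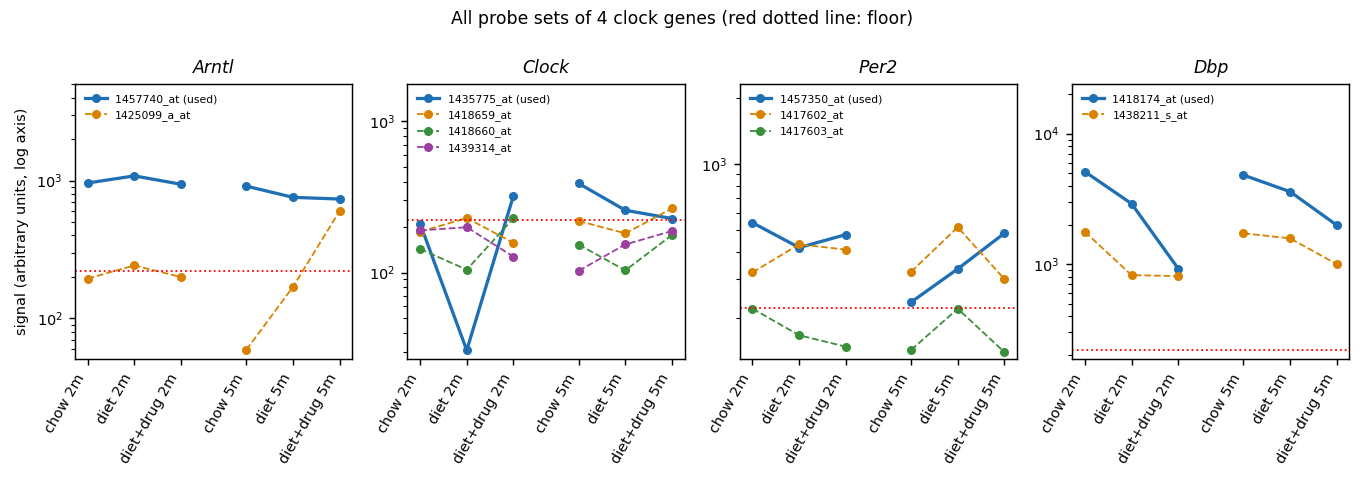
Signal in arbitrary units (y axis, log scale) of every probe set of Arntl, Clock, Per2 and Dbp on the 6 arrays (x axis, 2 months left and 5 months right), solid for the probe set used and dashed for the others, with the floor as a dotted line. The probe sets of Arntl part on the 5-month drug array (735.3 against 602.4, where the second is otherwise at 242.4 or less), and those of Dbp are both highest with chow and lowest with the drug in each study.

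The studies were then taken as repeats of each other in a limma fit over all 6 arrays, with terms for treatment and study, 2 residual degrees of freedom and Benjamini-Hochberg adjustment over 13989 genes. Where an effect differed between the studies, that difference counts as error in this fit. Its diet contrast also holds the vehicle injections of the 5-month study. For the drug on the diet, 0 of 8 clock genes had a limma adjusted p under 0.05, against 0.715% of all genes (0.407% higher and 0.307% lower). At an unadjusted p under 0.05 there were 2 of 8, against 14.8%, namely Per1, higher like 7.24% of all genes, and Dbp, lower like 7.53%. Dbp was lower by a log2 difference of -1.25 ± 0.28 (SE, limma adjusted p = 0.150), and lower with the drug in 2 of 2 studies. Nr1d1 had -0.86 ± 0.35 (limma adjusted p = 0.342) and Per1 had 0.76 ± 0.27 (limma adjusted p = 0.292), each with the same sign in 2 of 2 studies. For Nr1d1 the 5-month difference was only -0.13. Arntl, Per2 and Tef also kept their sign in 2 of 2 studies on the probe sets used, so this was not particular to these genes. For the diet, 0 of 8 passed at the adjusted and 0 of 8 at the unadjusted p, against 0.0286% and 9.87% of all genes (5.43% higher and 4.44% lower), and the lowest limma adjusted p was 0.540, for Nr1d2 at -0.41 ± 0.18. Where the limma fit was limited to the 9874 genes above the floor on all arrays, Dbp passed for the drug with an adjusted p of 0.0301, and over all 10 alternatives its adjusted p ranged from 0.0301 to 0.268. The fitted difference of Dbp over these alternatives ranged from -1.25 to -0.80, the smallest being that with the mean over its probe sets (limma adjusted p = 0.268).

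**Figure D4:**
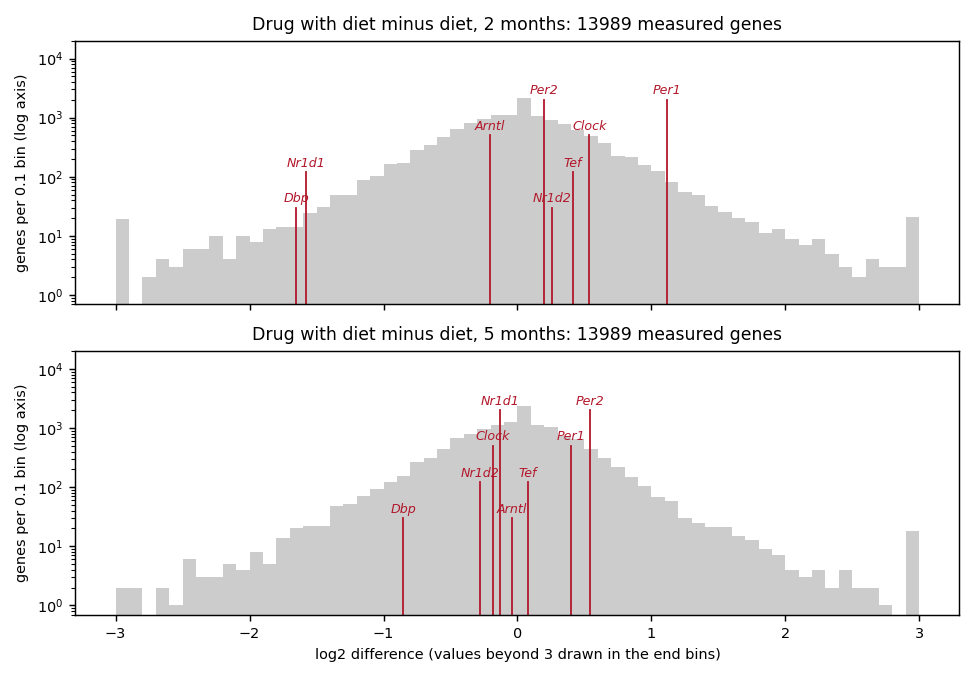
Number of the 13989 measured genes (y axis, log scale) in bins of 0.1 of the log2 difference between drug with diet and diet (x axis) at 2 and at 5 months, with the 8 measured clock genes as red lines whose heights only separate the names. At 2 months Dbp and Nr1d1 stand in the left tail at -1.65 and -1.58 and Per1 on the right at 1.12, while at 5 months Dbp is the leftmost of them at -0.85.

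Over the 8 measured genes the median log2 difference was -0.36 and -0.22 for the diet at 2 and 5 months and 0.23 and -0.09 for the drug on the diet, where the median of all measured genes was 0.00 each time. These medians hide opposite signs. With the drug at 2 months 5 genes were higher and 3 lower, and at 5 months 3 were higher and 5 lower. With the diet 6 of 8 were lower at each time, 1 and then 2 were higher, and Clock could not be ordered at 2 months.

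Genes whose signal followed that of Dbp most closely were sought among the 9873 others above the floor on all arrays, by the root mean square difference of log2 signals centred on each gene's mean over the 6 arrays. The nearest 5 were Gstt2, a glutathione transferase gene, with 0.20, Dnase2a, a lysosomal nuclease gene, with 0.21, Crot, a peroxisomal carnitine acyltransferase gene, with 0.22, Csad, which makes the taurine precursor hypotaurine, with 0.26, and Ociad2 with 0.28, where Dbp itself varied by 0.85. Gstt2 read 2130, 938.8 and 366.3 at 2 months and 2274, 1552 and 656.8 at 5 months, the same stepwise order as Dbp. Nr1d1 came 7th with 0.30, and Nr1d2 came 1105th with 0.71. For the nearly flat Arntl the nearest were Dhx58, Pde4a, Lexis1, Fam234a and Gpank1, at 0.04 to 0.05 against a variation of 0.20 in Arntl itself, so that likeness says little beyond flatness.

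Of 12 other clock factors, 11 were matched and 10 measured. With the drug on the diet, 0 of 10 were at least 2-fold higher at 2 months and 1 at 5 months, against 3.55% and 2.19% of all genes. None was at least 2-fold lower at either time, against 3.26% and 2.73%. Genes with a higher signal of whatever size numbered 8 at 2 months and 4 at 5 months, and those with a lower signal 1 and 5. Their medians were 0.29 and 0.00, where the median of all measured genes was 0.00 each time. With the diet, 0 of 10 were at least 2-fold higher at either time, against 1.98% and 2.72% of all genes. At least 2-fold lower were 0 at 2 months and 1 at 5 months (Cry2), against 1.55% and 1.83%. The medians were -0.12 and -0.05. Nfil3, the repressor that competes with DBP and TEF at D-boxes, had signals of 536.0, 579.7 and 1135 in the 2-month study and 334.3, 334.3 and 691.1 in the 5-month study with chow, diet and drug. Within each study the drug array was about as far above the diet array, at 0.97 and 1.05 on the log2 scale, and the diet arrays stayed near chow (0.11 and 0.00). Bhlhe40 (Dec1), an E-box repressor of the clock, had 2013, 1820 and 3608 and then 3627, 2782 and 5018, or 0.99 and 0.85 for drug against diet, while the chow arrays themselves differed by 0.85. Cry2, the relative of Cry1, read 221.2, 151.3 and 385.6 and then 568.8, 280.4 and 482.4, at least 1.74-fold higher with the drug than with the diet at 2 months and 1.72-fold higher at 5 months. Only in the 5-month study were all 3 Cry2 arrays above the floor, and there the drug array stayed below chow. Rorb, a ROR-family receptor gene that is mainly neural, read 345.2, 462.5 and 375.9 and then 425.6 with the 5-month diet, with the 5-month chow and drug arrays below the floor. In the limma fit for the drug, Bhlhe40 had 0.92 ± 0.14 (adjusted p = 0.0750), Nfil3 had 1.01 ± 0.22 (adjusted p = 0.141) and Cry2 had 0.79 ± 0.31 (adjusted p = 0.334). For the drug 0 of 10 passed, against 0.715% of all genes, with 4 at an unadjusted p under 0.05, against 14.8%. For the diet 0 of 10 passed, against 0.0286%, with 1 at an unadjusted p under 0.05, against 9.87%.

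Of 13 genes for modifiers and cofactors of clock proteins, 11 were matched and measured, and their medians lay within 0.07 of 0 in the diet and drug comparisons. The coactivator gene Ppargc1a was 1 of 11 at least 2-fold higher with the drug at 2 months, against 3.55% of all genes (1.25 on the log2 scale, and 0.00 at 5 months). The kinase gene Gsk3b was 1 of 11 at least 2-fold lower with the drug at 5 months, against 2.73% of all genes (-1.02, and -0.53 at 2 months). The casein kinase gene Csnk1e, whose product phosphorylates PER proteins, had 0.37 and -0.44, and Nono, whose product binds PER, had 0.05 and 0.52. In the limma fit 0 of 11 passed for the drug and 0 of 11 for the diet, against 0.715% and 0.0286% of all genes. At an unadjusted p under 0.05 there was 1 each, against 14.8% and 9.87%.

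Of 14 liver genes known to be timed by the clock, 13 were matched and measured, and their differences went in both directions. With the drug on the diet 3 of 13 were past 2-fold upward and 2 downward at 2 months, against 3.55% and 3.26% of all genes, with a median of 0.59. At 5 months 2 of 13 were past it upward and 1 downward, against 2.19% and 2.73%, with a median of -0.44. Cyp7a1, the rate-limiting enzyme of bile acid synthesis and a known target of DBP, had signals of 6082, 4294 and 9864 in the 2-month study and 3068, 2270 and 7033 in the 5-month study with chow, diet and drug. It was thus highest with the drug in each study, where Dbp was lowest, and rose in the limma fit by 1.42 ± 0.17 (adjusted p = 0.0419). In that fit 1 of 13 passed, against 0.715% of all genes, with 8 at an unadjusted p under 0.05, against 14.8%. Tfrc, the transferrin receptor gene, was higher with the diet (1.14 and 1.38) and higher again with the drug (2.17 and 1.30, limma adjusted p = 0.0544). Elovl3, an elongase gene with a strong daily rhythm, had -3.84 and -0.66 for the drug. The kinase gene Wee1, an E-box target, had 0.93 at 2 months and was at least 5.63-fold lower at 5 months, its signal being at the floor, and the lipin gene Lpin1 had 1.95 and 0.08, where the chow arrays themselves differed by 3.99-fold. The diet comparison gave -1.75 and 0.19 for Wee1 and -0.87 and 1.51 for Lpin1. With the diet 2 of 13 were past 2-fold upward and 1 downward in each study. The shares of all genes were 1.98% and 1.55% at 2 months and 2.72% and 1.83% at 5 months. In the limma fit for the diet 0 of 13 passed, against 0.0286%, with 3 at an unadjusted p under 0.05, against 9.87%. The medians for the diet were -0.11 and 0.27.

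**Figure D5:**
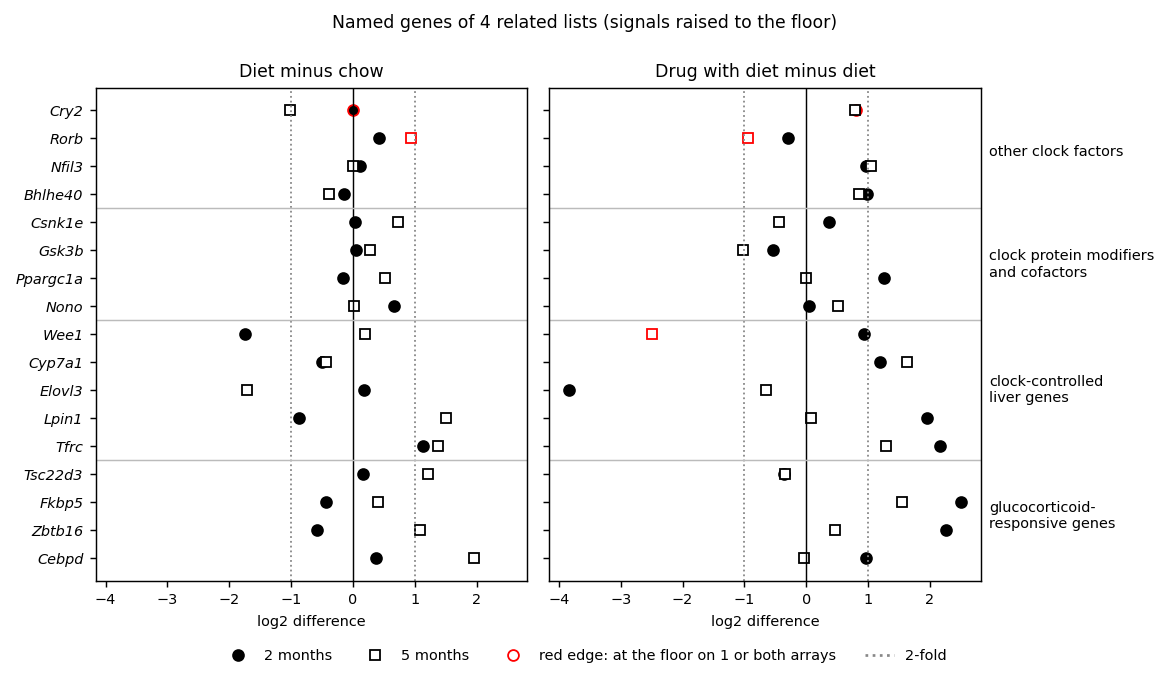
Log2 differences between single arrays (x axis) of the named genes of 4 related lists (y axis), for diet against chow and for drug with diet against diet, filled circles at 2 months and open squares at 5 months, with dotted lines at 2-fold and red edges where a signal was at the floor. With the drug Nfil3, Bhlhe40, Cyp7a1, Tfrc and Fkbp5, among others, lie right of 0 at both times.

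Genes that glucocorticoids are known to induce, as they do Per1, were listed beside it, and all 9 were measured. With the drug 2 of 9 were at least 2-fold higher at 2 months and 1 at 5 months, against 3.55% and 2.19% of all genes. At least 2-fold lower were 0, against 3.26% and 2.73%, and the medians were 0.82 and 0.07. Fkbp5, a cochaperone gene of the glucocorticoid receptor, read 1781, 1316 and 7474 at 2 months and 1342, 1769 and 5184 at 5 months. It rose with the drug by 2.03 ± 0.25 (limma adjusted p = 0.0483). In that fit 1 of 9 passed, against 0.715% of all genes, with 4 at an unadjusted p under 0.05, against 14.8%. Like Per1, Fkbp5 was highest on both drug arrays. Zbtb16 had 2.26 and 0.47 for the drug, whereas Tsc22d3 had -0.36 and -0.34 and Cebpd had 0.97 and -0.03. With the diet at 5 months, where Per1 also read above chow, 3 of 9 were at least 2-fold higher, against 2.72% of all genes. They were Cebpd (1.96), Tsc22d3 (1.21) and Zbtb16 (1.09). At 2 months there were 0 of 9, against 1.98%. The 5-month diet mice also had vehicle injections, which are not named for chow, so diet and injection cannot be told apart there. In the limma fit for the diet 0 of 9 passed, against 0.0286%, with 1 at an unadjusted p under 0.05, against 9.87%. The chow arrays themselves differed by -1.70 for Cebpd and -1.51 for Tsc22d3, lower at 5 months. Whether Per1 shares a regulator with these genes was not tested.

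All 8 hepatocyte markers, Alb and Apoa1 among them, were above the floor on all 6 arrays, with summed signals of 280394 to 529154. Of these 8 of 8 were higher with the drug than with the diet at both times, where the median difference of all measured genes was 0.00. Macrophage markers summed to 10950 and 11876 with chow, 26311 and 31464 with diet and 34883 and 36056 with the drug, and 7 of 8 and 6 of 8 were higher with the drug. Neutrophil markers summed to 2447 and 2597 with chow, 2382 and 2131 with diet and 13926 and 15676 with the drug, and all 5 that were measured were higher with it at both times. Both sums, like the hepatocyte sum, were higher with the drug than with the diet at both times. The macrophage sum, however, rose mostly between chow and diet. The part of these sums in the clock gene differences was not tested. Stellate cell markers summed to 8312 to 10030 with chow, 17539 and 25001 with diet and 16898 and 12829 with the drug. Of them 2 of 6, against 3.26% and 2.73% of all genes, were at least 2-fold lower with the drug than with the diet at each time. These were the collagen genes, named after their values were seen, Col3a1, 3.99-fold and 4.94-fold lower, and Col1a1, 2.91-fold and at least 4.82-fold lower. In any amount 5 of 6 stellate markers were lower with the drug at 2 months and 6 of 6 at 5 months. Dcn was the higher one at 2 months, by 0.31 on the log2 scale. Col3a1 fell in the limma fit, with a log2 difference of -2.15 ± 0.26 (adjusted p = 0.0435), and its part in the clock gene differences was not tested. Of the stellate markers 1 of 6 passed, against 0.715% of all genes, with 2 at an unadjusted p under 0.05, against 14.8%. Of the neutrophil markers 3 of 5 passed (S100a8, S100a9 and Ngp), with 5 at an unadjusted p under 0.05, against the same shares. S100a8 and S100a9 were each above the floor on only 3 arrays. In the other marker lists 0 passed for the drug. The sums of endothelial (5742 to 9353), cholangiocyte (756.5 to 1753) and lymphocyte markers (2371 to 3132) are given as ranges over the 6 arrays. Among the cholangiocyte markers Krt7 was below the floor on all 6 arrays, while Krt19 was above it on 1, Sox9 on 5 and Epcam on 6. For actin the array carries probe sets at both ends of the transcript, whose distance widens as RNA degrades, and the 3' end exceeded the 5' end by 1.19 and 1.12 on the log2 scale on the drug arrays and by 0.85 to 0.98 on the others. The same distance for Gapdh was -0.20 and -0.14 on the drug arrays and -0.30 to -0.09 on the others, so it did not set the drug arrays apart. The part of RNA quality in these differences was not tested either. Between 84.3% and 86.6% of measured genes were above the floor on each array.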

How the data were processed

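The authors deposited 1 MAS5 signal per probe set and array, an intensity in linear units, with MAS5 named per the submitters' processing notes and its version not stated there. The deposited values themselves show scaling of every array to a mean of 500 once the lowest and highest 2% of probe sets are set aside. Arrays have no read depth. Of 45101 probe sets, 34958 had 1 gene symbol in the platform annotation, 932 several and 9211 none. Signals were raised to a floor of 221.4 and log2 transformed, and the 13989 genes above it on at least 1 array are called measured. Where only 1 of 2 compared arrays exceeded the floor, the difference is a lower bound.

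Differences between single arrays carry no test, and 2-fold was the size counted. limma 3.58.1 (R 4.3.3, variance trend) gave the fit over both studies and was tested on simulated data. In these the diet and drug arrays carried the same added differences, so recovery of a difference between drug and diet was not tested. Alternatives were quantile, cyclic loess and median scaling, a floor at the 40th percentile, at the 60th percentile or absent, the mean over probe sets, probe sets ending in _s_at, _x_at or _a_at left out, a 1.5-fold threshold, no variance trend, and genes above the floor on all arrays. Of the 48 genes of the 4 related lists, 44 were matched and 43 measured, and of 44 cell type markers 42 and 40; the others are not analysed here. The members and lists were chosen with earlier results of these data known. All members were named, and of each related list the genes at least 2-fold different in the same direction at both times and the 4 with the largest difference. Python 3.11.15 with NumPy 2.4.6, pandas 2.3.3, SciPy 1.17.1 and matplotlib 3.10.9 were used.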

Additional observations from a re-analysis of the deposited data

Results flagged for a closer look

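In the comparisons of diet with chow and of drug with diet, the sign of a difference was opposite at the 2 times in 4 cases on arrays that were all above the floor, and none of these differences between the times was tested. For diet against chow they were Arntl, with log2 differences of 0.17 at 2 months and -0.27 at 5 months, Per1 with -0.16 and 0.76, and Per2 with -0.38 and 0.50. For drug with diet against diet it was Nr1d2, with 0.26 and -0.28. Against chow, the drug with the diet also gave opposite signs for Per2, -0.18 and 1.04, a difference that was not tested either. The second probe set of Per2 gave 0.35 and -0.11 there, the reverse of both signs. For diet against chow, the second probe set of Per2 did not share the reversal, with 0.42 and 0.67.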

How the results depend on the processing

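Of 146 recomputed counts of clock genes, 131 stayed within 1.5 times their value. For genes at least 2-fold higher with the drug than with the diet at 2 months, the count of 1 became 2 with a floor at the 40th percentile and 2 with no floor. For the drug against chow at 5 months, the count of 2 higher genes became 1 with a floor at the 60th percentile and 1 with the mean over probe sets, and the count of 1 gene lower between the chow arrays became 0 under both. With no floor, 1 gene was lower with the diet at 2 months in place of 0, and with the mean over probe sets 1 in place of 2 was lower with the drug than with the diet at 2 months. At a threshold of 1.5-fold, which counts smaller differences, the diet gave 2 lower at 2 months and 1 higher and 2 lower at 5 months, the drug against diet 1 lower at 5 months, the drug against chow 1 higher at 2 months, and the chow pair 2 higher, where 2-fold gave 0 each. In the limma fit 1 clock gene, Dbp, passed for the drug among genes above the floor on all arrays. There its fitted difference was unchanged, but its SE was 0.255 and its unadjusted limma p 0.000813. Over all measured genes these were 0.284 and 0.00563, so the fitted error differed as well as the number of genes tested. The log2 difference of Dbp between drug and diet ranged from -1.65 to -0.84 at 2 months and from -0.89 to -0.75 at 5 months over 8 alternatives. That of Nr1d1 ranged from -1.60 to -1.55 and from -0.14 to -0.09, and that of Per1 from 1.12 to 1.13 and from 0.39 to 0.44. Nr1d1 and Per1 have 1 probe set each, with signals above every floor used. Only the quantile, cyclic loess and median scaling could therefore change their values, and the narrow ranges reflect this. Of 448 recomputed differences of single genes, 440 stayed on their side of 2-fold and 0 at least 2-fold different reversed sign. This count includes such settings that could not change a value. Signals near the floor, those of Clock, Npas2 and Cry1 above all, limit what can be said of these genes. No paired analysis was possible because each group was 1 array with no replicate number, beyond the term for study that the limma fit already holds.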
